A study of Sus scrofa with 4 samples.

Results

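Cytotoxic effector and NK receptor genes were followed in IL2RG KO and WT pig thymus through 5 genes, GZMK, GZMB, NKG7, KLRK1 and LAG3. All probes on the array with a RefSeq accession of these genes were taken, which gave 6 of the 43603 probes, with 2 for GZMB and 1 for each of the other genes. They are 5 of the 3020 genes that had a probe with a name. The 5 genes had been selected on the KO against WT difference measured on these same arrays, and granzyme K had been set against granzyme B with that difference known, so their changes are given as a description and without a test. All 6 probes were well above background on all 4 arrays, and none was left out. Each genotype had 2 one-colour Agilent pig arrays, hybridised with thymus RNA. Both genotypes were Minnesota miniature swine. The KO pigs were IL2RG+/-, with a TALEN-made deletion on 1 allele of IL2RG, the common gamma chain of the IL2 receptor family (mIL2RG+/Δ69-368), and were cloned by nuclear transfer from edited cells. Their thymus was rudimentary, and KO pigs that lacked a thymus could not contribute arrays. No treatment was given, and the ages of the pigs are not stated in the labels. The series design speaks of independent experiments, and adjusted p values below measure only the spread between these arrays.

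Cytotoxic lymphocytes, which are mainly NK cells and CD8+ T cells, kill a target cell by releasing granules that hold granzymes, a family of serine proteases. Granzyme B cuts caspases and other proteins after aspartate and is the classical death-inducing member, granzymes A and K cut after basic residues, and granzyme K is typical of memory-like and innate-like lymphocytes. NKG7 is a membrane protein of these granules that is needed for efficient degranulation. KLRK1 encodes NKG2D, an activating receptor that recognises stress-induced ligands, and LAG3 encodes an inhibitory receptor that binds MHC class II. NK cells depend on IL15, whose receptor contains the common gamma chain, and a normal thymus consists mostly of developing T cells that hold few such granules.

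IL2RG itself was checked first. On the log2 scale used throughout, the signal of a probe is given relative to the 75th percentile of its array, so that 0 is that percentile. The brighter IL2RG probe gave -3.15 and -3.29 on the KO arrays, compared to -0.13 and 0.52 on the WT arrays, a change of -3.41 (SE 0.27, adjusted p = 0.00256 in limma). The second IL2RG probe changed by -4.38 (SE 0.26, adjusted p = 0.00208 in limma). The labels of the arrays and the targeted gene therefore ran in the same direction, although the place of these probes relative to the deletion is not given in the sources used here. All 11 tested markers of T cells and thymocytes, given below, fell as well. The part of these cells in the fall of IL2RG was not tested.

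Granzyme K had the largest change of the 5 genes. The background-corrected signal of its probe was 6734 and 6496 on KO replicates 1 and 2, compared to 121 and 194 on WT replicates 1 and 2. On the relative log2 scale KO arrays gave 3.14 and 3.22 and WT arrays -2.35 and -1.84. The KO arrays differed by 0.08 and the WT arrays by 0.52, whereas the genotypes lay far apart with no overlap. The mean was 3.18 ± 0.06 in KO compared to -2.09 ± 0.37 in WT (SD, n = 2 each), which is a log2 change of 5.28 (SE 0.23) or 38.8-fold higher in KO. This change stood at rank 30 from the top among 31965 tested probes, and at rank 3 among the 2702 genes with a named and tested probe.

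Granzyme B did not follow granzyme K. Its brightest probe gave signals of 1775 and 1300 in KO, with 1688 and 3200 in WT. On the log2 scale the values were 1.22 and 0.90 in KO compared to 1.44 and 2.20 in WT, so that both KO arrays lay below both WT arrays by a small margin. The mean was 1.06 ± 0.22 in KO compared to 1.82 ± 0.54 in WT (SD, n = 2 each), a change of -0.76 (SE 0.31) or 1.70-fold lower in KO. The second GZMB probe gave 0.59 and 0.53 in KO compared to 0.43 and 1.04 in WT. The KO arrays of this probe fell inside the WT range, and the change was -0.18 (SE 0.25). WT replicate 2 was the highest array at both GZMB probes. Without WT replicate 1 the change of the brightest probe was -1.14, without WT replicate 2 it was -0.38, and the change of the second probe without WT replicate 2 was 0.13.

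**Figure D1:**
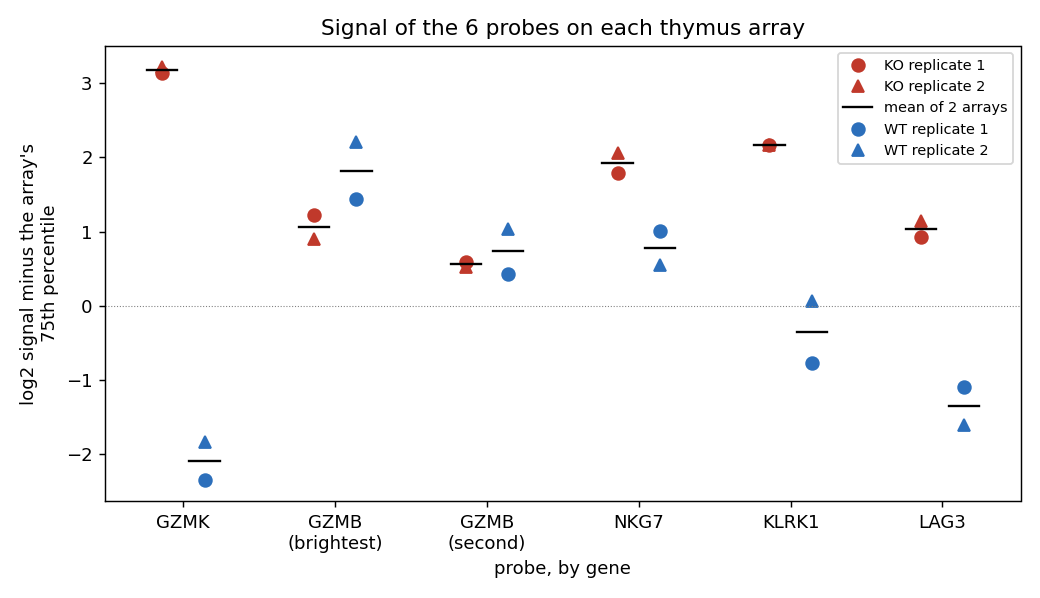
The vertical axis is the log2 signal minus the 75th percentile of its array, and each of the 6 probes is shown with KO arrays in red and WT arrays in blue, circles for replicate 1, triangles for replicate 2 and a black line for the mean of 2 arrays. KO lay above WT without overlap at GZMK, NKG7, KLRK1 and LAG3, and the KO arrays lay below or inside the WT range at the GZMB probes; heights of different probes are not comparable.

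The contrast of the 2 granzymes is described here by pairs of arrays. The 4 pairs reuse the same 2 arrays of each genotype and are not independent. Taking each KO array against each WT array, GZMK was higher by 4.98 to 5.58, which is 31.6-fold to 47.7-fold. The brightest GZMB probe differed by -0.22 to -1.30 in the same pairs. The change of GZMK minus the change of GZMB was 6.04 for the means and ran from 5.72 to 6.36 over the 4 pairs. On slide 1, which held KO replicate 1 and WT replicate 2, the contrast was 5.96, and on slide 2, which held the remaining arrays, it was 6.12. With the second GZMB probe it was 5.46, and ran from 5.34 to 5.57 over the pairs. Rescaling a whole array moves both probes equally and leaves this contrast as it is.

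**Figure D2:**
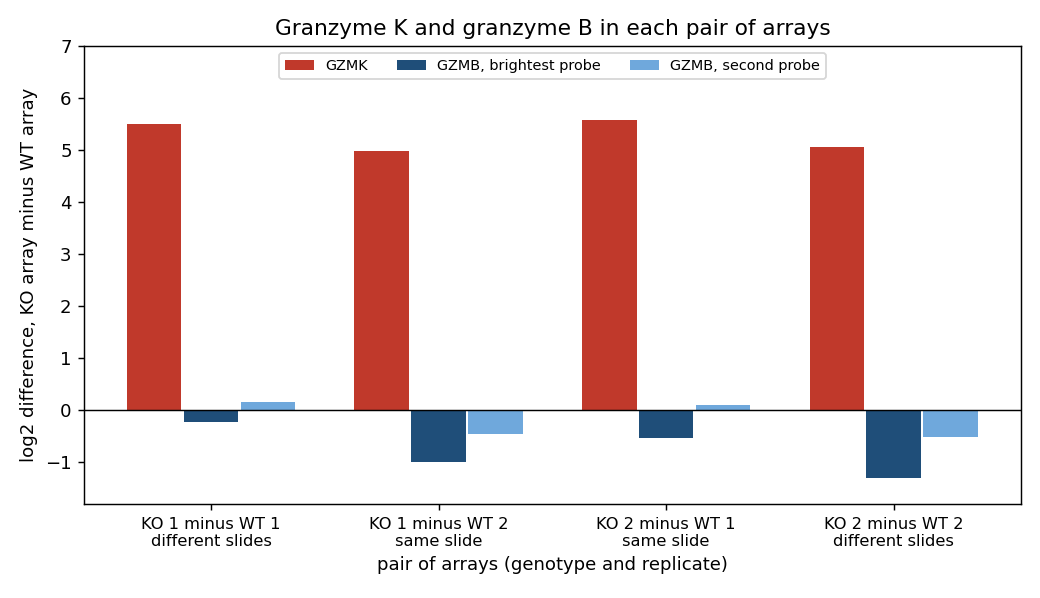
Bars give the log2 difference of a KO array minus a WT array for the GZMK probe and both GZMB probes, in each of the 4 pairs of arrays, with the slides named below. GZMK stood near 5 in all pairs, and the GZMB bars lay between -1.30 and 0.16.

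The other granzymes with a named probe were GZMA, GZMH and GZMM. These 3 genes had 5 probes, and all 5 were called higher in KO, with log2 changes from 1.19 to 4.78, where a call is an adjusted p under 0.05 with a change of at least 2-fold. Of all tested probes 21.0% were called higher. GZMA, a trypsin-like granzyme, gave -1.32 and -1.35 in KO compared to -5.54 and -6.04 in WT at its brightest probe, a change of 4.46 (SE 0.23, adjusted p = 0.00205 in limma), with 1 WT array not well above background. Its second probe did not stand well above background in WT and was at least 26.3-fold higher in KO (adjusted p = 0.00205 in limma). GZMH, a chymotrypsin-like granzyme, gave 3.22 and 3.07 in KO compared to 1.95 and 1.97 in WT, and changed by 1.19 at both probes (adjusted p = 0.00677 and 0.00704 in limma). GZMM, a granzyme known from NK cells, changed by 1.29 (SE 0.24, adjusted p = 0.0159 in limma). The GZMH call was lost under scaling to the array median, where its change was 0.93. Granzyme genes resemble each other in sequence, and whether a probe also bound the RNA of another granzyme was not tested.

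NKG7, the granule membrane protein, gave 1.79 and 2.06 in KO compared to 1.01 and 0.54 in WT. Both KO arrays were above both WT arrays, with the nearest pair 0.77 apart. The mean was 1.92 ± 0.19 in KO compared to 0.78 ± 0.33 in WT (SD, n = 2 each), a change of 1.14 (SE 0.23) or 2.21-fold higher in KO. This was the smallest of the rises among the 5 genes, at rank 6751 of the 31965 tested probes. A 2-fold change is 1 on this scale, which NKG7 just exceeded at 1.14 and the brightest GZMB probe did not reach at -0.76. The NKG7 change was 1.28 without KO replicate 1, 1.01 without KO replicate 2, 1.38 without WT replicate 1, 0.91 without WT replicate 2 and 0.89 under scaling to the array median.

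The genes of the cytotoxic granule and effector list, to which GZMA, GZMH and GZMM also belong, moved in both directions. Of its 20 genes, 11 had a named probe and all 11 were tested. 8 rose in KO, 1 fell and 2 did not pass, with a median log2 change of 1.53. Over all 2702 named genes the median change was -0.0019, and 25.2% were called higher and 12.6% lower. IFNG, the interferon secreted by activated cytotoxic lymphocytes, changed by 3.91 (SE 0.15, adjusted p = 0.00205 in limma). FASLG, a death ligand on cytotoxic cells, was not well above background in WT, and its measured signal was 13.97-fold higher in KO (adjusted p = 0.00205 in limma). FAS, the receptor of that ligand, changed by 2.49, TNFSF10, the death ligand TRAIL, by 2.00, and STX11, a syntaxin that granule release needs, by 1.53. RAB27A, the small GTPase that docks granules at the membrane, fell by 1.36 on the log2 scale (SE 0.24, adjusted p = 0.0131 in limma). LAMP1, a lysosome and granule membrane protein, changed by 0.29 and SERPINB9, the inhibitor that protects cells from granzyme B, by 0.61, and neither passed. Without KO replicate 1 the calls of GZMH, GZMM and RAB27A were lost, and the same held without KO replicate 2.

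KLRK1, the receptor NKG2D, gave 2.17 on both KO arrays and -0.77 and 0.07 on the WT arrays. The KO arrays agreed within 0.0045, while the WT arrays were 0.83 apart, the widest gap between WT arrays at any of the 6 probes. The mean was 2.17 ± 0.0032 in KO compared to -0.35 ± 0.59 in WT (SD, n = 2 each). The change was 2.52 (SE 0.32) or 5.74-fold higher in KO, and it ran from 2.10 to 2.94 over the 4 pairs of arrays. In the ranking of tested probes it stood at 2180.

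NKG2D signals through small adaptor proteins. HCST, which encodes the adaptor DAP10, had 3 probes with changes of -0.27, -0.32 and -0.30, and none passed (adjusted p = 0.219, 0.166 and 0.213 in limma). TYROBP, which encodes the adaptor DAP12, gave 3.75 and 3.95 in KO compared to 2.43 and 1.53 in WT, a change of 1.87 (SE 0.34, adjusted p = 0.0147 in limma). ULBP1, a ligand of NKG2D and the one ligand gene with a named probe, had 1 tested probe. This probe was not well above background in WT, and its measured signal was 3.63-fold higher in KO (adjusted p = 0.00771 in limma). Another ULBP1 probe was not well above background on any array and was not tested.

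The wider list of NK receptors and adaptors had 25 genes, of which 11 had a named probe and 10 were tested. 3 rose, 3 fell and 4 did not pass, with a median change of -0.19, against 25.2% of all named genes called higher and 12.6% lower. The share of risers was close to that of all genes and the share of fallers was higher, each resting on 3 of 10 genes. FCGR3A, the Fc receptor CD16, changed by 2.44 (SE 0.43, adjusted p = 0.0132 in limma) and FCER1G, the Fc receptor gamma chain, by 1.65 (SE 0.42, adjusted p = 0.0340 in limma). CD247, the zeta chain shared by the T cell receptor and CD16, fell by 2.997 on the log2 scale, SH2D1A, the adaptor SAP, by 2.96 and CD2, an adhesion receptor of T and NK cells, by 1.47. CD48 and CD96, which are surface receptors of lymphocytes, and ITGAL, an integrin chain, changed by -0.42, -0.10 and 0.17 and did not pass. NCR1, which encodes the NK cell receptor NKp46, was well above background on 1 of the 4 arrays, a WT array, and was not tested. The calls of FCER1G and TYROBP were lost without KO replicate 1 and also without KO replicate 2, and that of FCGR3A without KO replicate 2. FCER1G was also lost with no filter on dim probes, where the adjusted p was 0.0551 in limma.

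**Figure D3:**
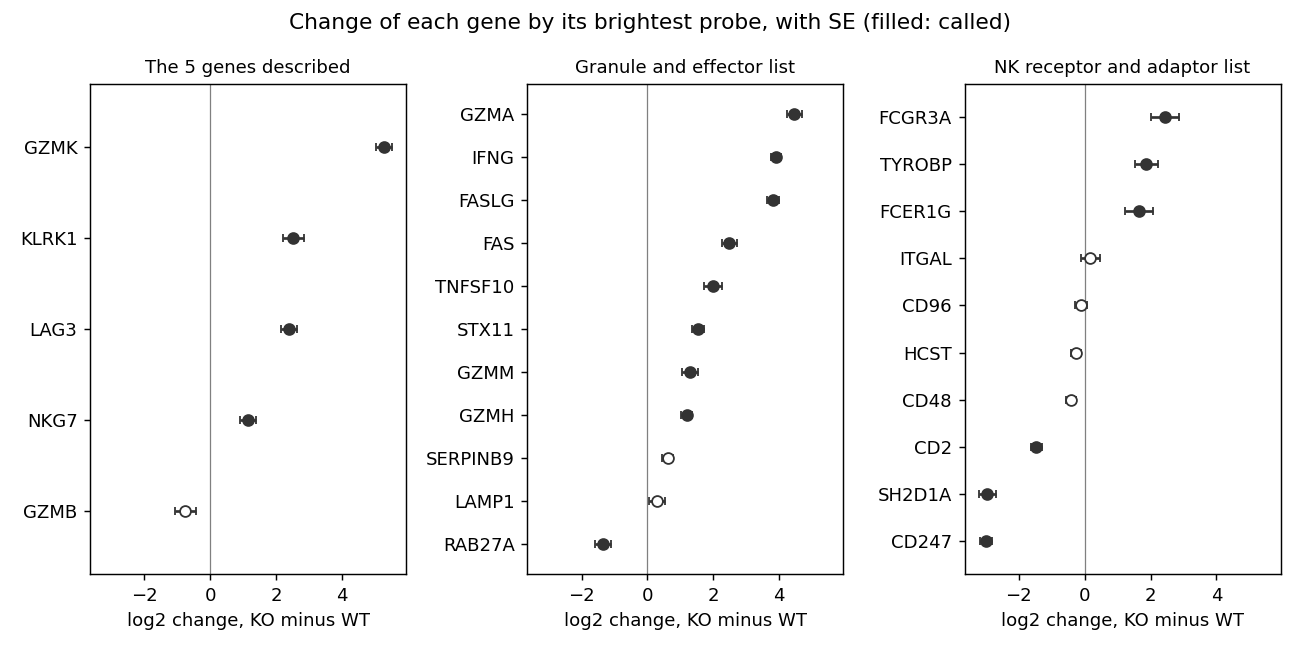
Points are log2 changes, KO minus WT, of each gene by its brightest tested probe, bars are SE from limma, and filled points passed the call of adjusted p and 2-fold. In the granule list 8 of 11 genes were called higher, and in the NK receptor and adaptor list the 3 higher and 3 lower genes lay on either side of 0.

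LAG3, the inhibitory receptor, gave 0.92 and 1.14 in KO compared to -1.09 and -1.61 in WT. The genotypes did not overlap, and WT replicate 1 was above WT replicate 2 here, as at NKG7 and in contrast to GZMK, GZMB and KLRK1. The mean was 1.03 ± 0.16 in KO compared to -1.35 ± 0.37 in WT (SD, n = 2 each), a change of 2.38 (SE 0.24) or 5.21-fold higher in KO. Over the pairs of arrays the change ran from 2.01 to 2.75.

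A list of 19 genes held other inhibitory receptors, the ligands of such receptors and MHC class II, which LAG3 binds. 13 of them had a named probe. 10 rose, 0 fell and 3 did not pass, with a median change of 1.81, against 25.2% of all named genes called higher and 12.6% lower. None of the 10 encodes an inhibitory receptor. They were ligands, an enzyme, and genes of MHC class II, namely SLA-DRA (1.81), SLA-DRB1 (1.94), SLA-DQA1 (1.63) and SLA-DQB1 (1.74) with CD74. The largest changes were those of PDCD1LG2 (2.97) and CD274 (2.85), the ligands of PD-1, ENTPD1 (2.31), an ectonucleotidase, CD80 (2.25), a costimulatory ligand that CTLA4 also binds, and CD74 (2.19), the chaperone of MHC class II, with adjusted p from 0.00207 to 0.00542 in limma. CTLA4, the 1 inhibitory receptor of the list that was tested, changed by -0.10, and LGALS3 and CLEC4G, which encode further LAG3 ligands, by -0.46 and 0.01. These 3 and the SLA genes were named after their values were seen.

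In total 4 of the 6 probes passed the call of an adjusted p under 0.05 and a change of at least 2-fold, all of them higher in KO, against 34.0% of the 31965 tested probes in either direction and 21.0% higher. The 2 arrays of each genotype did not overlap at 5 of the 6 probes, against 78.7% of all tested probes. With an array left out, 3 to 5 of the 6 probes passed, as NKG7 did not pass without KO replicate 1, KO replicate 2 or WT replicate 2 and the brightest GZMB probe passed as lower without WT replicate 1. In those fits the spread comes from the genotype with 2 arrays, pooled over probes. Since the genes had been chosen on this contrast, nothing was read from these counts.

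**Figure D4:**
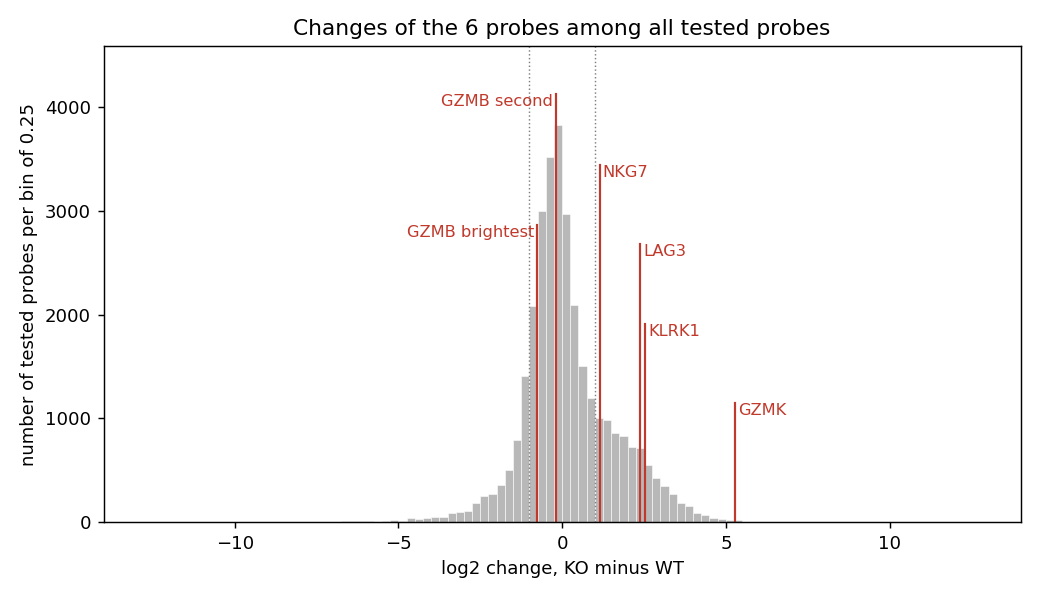
Grey bars count the 31965 tested probes by log2 change, KO minus WT, in bins of 0.25, red lines mark the 6 probes and dotted lines mark a 2-fold change. GZMK lay in the far right tail at 5.28, KLRK1 and LAG3 at 2.52 and 2.38 on the right shoulder, NKG7 just past the dotted line and both GZMB probes left of 0.

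The signals that govern cytotoxic cells were next examined. In the cytokine and receptor list, 12 of 18 genes were tested, with 5 higher, 3 lower and 4 not passing and a median change of 0.09, against 25.2% of all named genes higher and 12.6% lower. IL15, the growth factor of NK cells, gave 1.80 and 1.95 in KO compared to -1.11 and -1.90 in WT, a change of 3.38 (SE 0.31, adjusted p = 0.00318 in limma). IL18 changed by 2.05 and IL12A, a subunit of IL12, by 2.01. IL12B, the other subunit of IL12, changed by 0.77 and did not pass. Both IL12 and IL18 stimulate interferon gamma in NK cells. Receptor chains for these cytokines went the other way, as IL12RB1 fell by 2.64 and IL18R1 by 2.52 on the log2 scale. In the transcription factor list 6 of 18 genes were tested. IRF1 (1.70), a factor of the interferon response, rose, LEF1 (-3.62), a factor of thymocyte development, and STAT5B (-1.06), which acts downstream of gamma chain cytokines, fell, and 3 did not pass. The second STAT5B probe changed by -0.37 and did not pass. The homing and chemokine list was shorter here than as first drawn up. All 10 tested genes left in it rose, with a median change of 2.87, against 25.2% of all named genes called higher. CXCL9 and CXCL10, which attract cytotoxic lymphocytes, changed by 4.96 and 3.70, the chemokine receptor CXCR6 by 3.57 and CCL4, a chemokine that activated cytotoxic cells secrete, by 3.17.

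The arrays measured whole thymus, so fewer cells of a type and less RNA per cell cannot be told apart, and several cell types can express the 5 genes. All 11 tested markers of T cells and thymocytes fell, with a median change of -2.60, and their summed signal was 26.3 and 25.4 times the 75th percentile in KO, compared to 162 and 232 times in WT. CD3D, CD3E and CD3G, the chains of CD3, changed by -2.12, -2.40 and -2.48 and CD8A by -2.50, while KLRK1 and LAG3 changed by 2.52 and 2.38. Of 9 tested macrophage markers 8 rose, SIRPA did not pass at its brightest probe (0.76) and rose at its second (2.01), and the sums were 285 and 353 for KO against 72.3 and 56.2 for WT. Macrophages are known to express TYROBP, FCER1G and FCGR3A, and the part of macrophages in those changes was not tested. Of the 3 tested markers of plasmacytoid dendritic cells, which can express GZMB, TLR9 rose by 1.099 and IRF7 and TLR7 did not pass. The sums of these markers were 9.58 and 10.5 in KO compared to 7.18 and 3.74 in WT. IRF7 made up the largest part of this sum on every array and TLR9 the smallest. Of the 3 tested B and plasma cell markers CD79A fell by 3.47 and MS4A1 by 3.45 on the log2 scale and BLNK rose by 1.43. The signal of BLNK was 3.22 and 3.86 in KO compared to 1.73 and 0.985 in WT and made up most of the sum of the list (3.32 and 3.95, against 2.86 and 1.99), while CD79A and MS4A1 together gave 0.105 and 0.0883 in KO, with 1.13 and 1.0005 in WT. The dendritic cell marker XCR1 and the mast cell marker MS4A2 were higher and KIT did not pass, with sums of 1.14 and 1.07 against 0.578 and 0.436 for the first list and of 7.12 and 6.30 against 5.64 and 3.16 for the second. KIT made up the larger part of the mast cell sum on every array. The neutrophil markers S100A8 and S100A9 did not pass, and their sum was 46.2 in WT replicate 1, 3.16 in WT replicate 2 and 0.515 and 2.39 in KO. The part of any of these cell types in the values of the 5 genes was not tested.

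The genes that lie beside the 5 genes in the RefSeq order were compared with them. GZMK has GZMA as its nearest tested neighbour on one side, with 1 gene between, and both had large positive changes, 5.28 and 4.46. FST, a secreted activin inhibitor on the other side with 11 genes between, changed by 1.55. GZMB lies directly beside GZMH, and the change of GZMB was -0.76 and that of GZMH 1.19. STXBP6, on the other side of GZMB, changed by -0.28 and did not pass. LAG3 has CD4, the T helper coreceptor, as its nearest tested neighbour, with 1 gene between, and these had opposite changes, as CD4 gave -1.85 and -1.67 in KO compared to 0.39 and 1.29 in WT, a fall of 2.60 on the log2 scale (SE 0.34, adjusted p = 0.00674 in limma). KLRK1 had CLEC7A, the lectin receptor dectin-1, at 1.69 with 5 genes between and TP23 at -0.31 with 22 between. NKG7 had ETFB, an electron transfer protein, at 0.0022 with 1 gene between and HAS1, a hyaluronan synthase, at -0.94 with 17 between, and neither passed. NOP2, a nucleolar protein on the other side of LAG3, changed by -0.23 and did not pass.

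**Figure D5:**
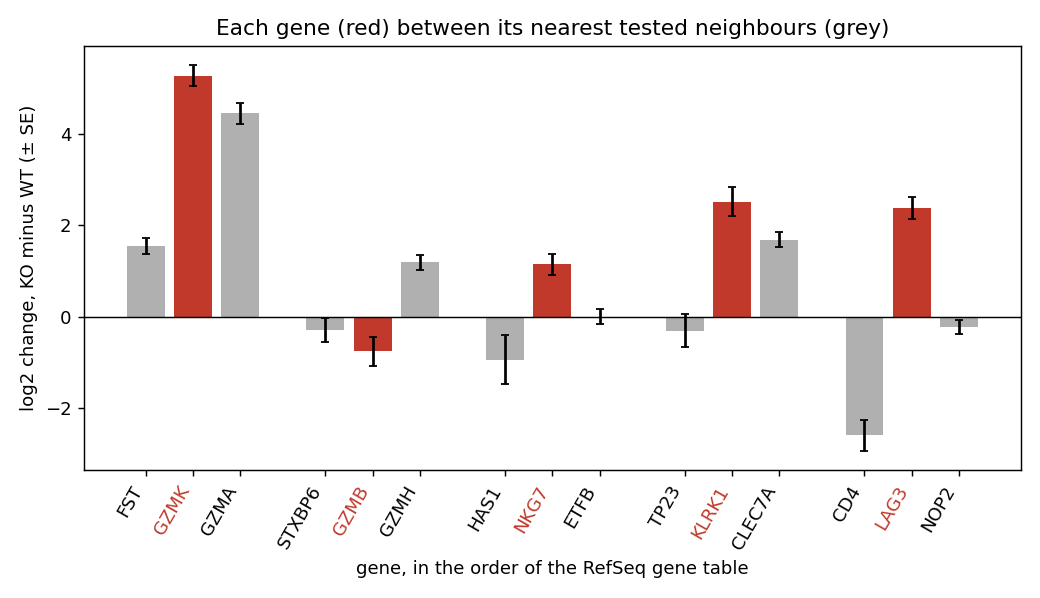
Bars are log2 changes, KO minus WT, with SE from limma, of each of the 5 genes in red and of the nearest tested gene on either side in the RefSeq order in grey, all by their brightest probe. GZMK and GZMA had large positive bars, whereas LAG3 and CD4 lay on opposite sides of 0 and so did GZMB and GZMH.

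For the granzyme pair, the named genes with the most similar values over the 4 arrays were sought, by the root mean square difference after each gene's mean was subtracted. LY6G6F (0.302), SULT1E1 (0.310), IFNE (0.319), CLDN10 (0.343) and POSTN (0.371) were closest to GZMK, and their changes ran from 4.54 to 5.52. ARF2 (0.047), PNISR (0.055), CD69 (0.075) and BCLAF1 (0.079) were among the closest to GZMB, and their changes ran from -0.66 to -0.90, none of which passed. The likeness is a description over 4 arrays of 2 genotypes.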

How the data were processed

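Thymus RNA of 2 IL2RG+/- KO and 2 WT samples was measured on 4 Agilent arrays. The files hold 1 channel and the labels give Cy3 as the dye, although the methods mention Cy-3 and Cy-5. The authors deposited spot intensity from Agilent Feature Extraction 11.0.1.1, background-subtracted and not normalized between arrays, and a table of log2 values. The deposited log2 values were quantile normalized, as seen from the values themselves, since the 4 arrays held the same value at each rank within 0.000436 (medians of 8.49), and they followed the scanner signal closely (Pearson's r 0.9998 or higher over 27970 probes).

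Control and outlier spots were removed, and no spot was saturated. Log2 signals were taken relative to the 75th percentile of the array, averaged over spots of a probe, and fitted with lmFit and eBayes of limma 3.58.1 (R 4.3.3) for the 31965 probes that stood well above background on both KO or both WT arrays. A call needed a Benjamini-Hochberg adjusted p below 0.05 together with a change of 2-fold or more. Python 3.11.15 with pandas 2.3.3, numpy 2.4.6 and matplotlib 3.10.9 served for tables and figures. The RefSeq gene table of Sscrofa11.1 named 6684 of the 7108 probes that had an accession, and a gene is represented by its brightest tested probe. Genes with no such name were not analysed here. "At least" folds replace a dim signal by the lowest signal well above background on that array, if that is higher. For FASLG and ULBP1 it was not higher, and the measured folds are given. Summed signals add linear signals of the brightest probes, relative to the 75th percentile.

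The 5 genes and all lists were chosen with earlier results of these data known. Named are all probes of the 5 genes, IL2RG, the genes of the granule and NK lists, at most 5 called genes of each other list by size of change, the nearest tested neighbours and the 5 closest profiles. A few further genes of the lists as first drawn up were dropped from the lists, their counts and the text, and 1 from the profiles. Other genes (the CD3 chains, CD8A and list genes that did not pass) were named after their values were seen. The alternatives were median scaling, quantile normalization, normexp with an offset of 50 on median intensities, the deposited log2 values, no filter, a filter on all 4 arrays, a slide block, a replicate block, each array left out (the genotype with 1 array is then assumed to vary like the other), the mean over a gene's probes and the methods' t-test. The number of arrays limits the precision, and an exact two-sided permutation test of a single gene cannot go below p = 0.333. Spleen arrays were not analysed here.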

Additional observations from a re-analysis of the deposited data

How the results depend on the processing

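Changes of GZMK, KLRK1 and LAG3 stayed above 2-fold under all 12 alternatives run on them, from 4.63 to 5.54, 2.11 to 2.94 and 2.12 to 2.64. Neither the choice of filter nor a slide or replicate block can move the change of a probe in this design. Under these alternatives the changes equalled those of the main fit by construction. NKG7 ran from 0.89 to 1.38, the brightest GZMB probe from -1.14 to -0.38 and the second from -0.48 to 0.13. With single arrays left out, GZMK ran from 5.02 to 5.54, and the difference of the GZMK and GZMB changes from 5.84 to 6.24. Under normexp GZMK was 4.63 and that difference 5.35, and the cause of this shift was not tested. With the mean over a gene's probes the difference was 5.75. GZMK has 1 probe, so only the GZMB value moved there, as its second probe was averaged in.

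Probes called numbered 10883, against 6622 under normexp, 6096 to 12714 with an array left out (6426 without KO replicate 1, 6096 without KO replicate 2), 1505 by the methods' t-test with Benjamini-Hochberg adjustment, 0 with Bonferroni and 8611 at its unadjusted p under 0.05. Of the other cytotoxic and NK genes 15 were called, 9 to 15 with an array left out (9 without KO replicate 2), 3 by the methods' t-test with Benjamini-Hochberg adjustment, 0 with Bonferroni and 12 unadjusted. Scaling to the median moved the median change of all tested probes from -0.06 to -0.32 and the share of calls that were higher from 61.7% to 47.8%.

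The replicate numbers did not pair the samples (r = -0.29 between the replicate differences of KO and WT over 31965 probes). The negative sign means that KO and WT arrays on the same slide tended to differ from their replicates in the same direction. The cause of this was not tested. With a replicate block 10669 probes were called and with the crossed pairing, which is the slide as a block, 11124, and both left 15 of the other genes called. No group had enough arrays for an outlier test.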
